A study of Mus musculus with 2 samples.

Results

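The 9 genes described here set whether a cell enters the division cycle: the Myc family (Myc, Mycn and Mycl), the D cyclins (Ccnd1, Ccnd2 and Ccnd3) and the Cip/Kip inhibitors (Cdkn1a, Cdkn1b and Cdkn1c). They are 9 of 21938 protein-coding genes, and the rule that picks them goes by gene name. Their open chromatin was read from DNase-seq, an assay in which the enzyme DNase I cuts the chromatin it can reach and the cut ends are sequenced. The tissue was hindbrain, from which cerebellum, pons and medulla develop, from healthy mouse embryos of strain B6NCrl at 14.5 days, with males and females pooled. The series has 1 group of 2 biological replicates from separate tissue samples. No genotype, treatment or second stage was compared, so the 2 libraries describe 1 condition. Their difference holds variation between the tissue samples and variation of the assay, which cannot be told apart.

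Myc proteins bind DNA as partners of Max, at the E-box CACGTG, and raise the transcription of genes for growth and division. In the developing hindbrain, Mycn is known for its role in the growth of cerebellar granule cell precursors downstream of Sonic hedgehog. The D cyclins activate the kinases Cdk4 and Cdk6, which phosphorylate the retinoblastoma protein and so release the E2F factors. The Cip/Kip proteins p21 (Cdkn1a), p27 (Cdkn1b) and p57 (Cdkn1c) bind cyclin-kinase complexes and hold cells out of the cycle. Cdkn1a is a classic target of p53, and Cdkn1c is an imprinted gene expressed from the maternal allele.

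Each library came as 150 bp peaks, each with a score that is a whole number, and as hotspots, which are wider regions of enriched cutting with a q-value. Peaks of the 2 libraries that overlapped by at least 1 bp were called shared. Promoter peaks were centred no more than 1 kb from an annotated start of the gene, and a distal peak lay within 50 kb of a start of the gene and more than 1 kb from every annotated start of any gene. Replicate 1 held 263679 peaks and replicate 2 held 148804, with median scores of 47 and 30, and 42.4% and 77.1% of them were shared. Read depth is unknown, so scores were set side by side as percentiles within a library. In whole tissue, a weaker site in all cells and an open site in fewer cells cannot be told apart. As a check of the tissue label, 8 of 8 hindbrain markers, 3 of 3 neural progenitor markers and 3 of 3 neuronal markers had a shared promoter peak, against 2 of 4 forebrain, 0 of 3 liver, 0 of 3 erythroid and 0 of 3 leukocyte markers. Shared peaks cannot show how the libraries differ. Forebrain markers had a promoter peak at 2 of 4 in replicate 1 and 3 of 4 in replicate 2. Their median promoter hotspot was 212.5 bp in replicate 1 and 611.5 bp in replicate 2. The medians were 1698.5 and 869.5 bp for hindbrain, 1573 and 542 bp for neural progenitor, and 2152 and 2016 bp for neuronal markers.

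The first 6 sequences lie at starts of the genes. They are the strongest shared promoter peak of Mycn, Ccnd3, Cdkn1a and Cdkn1b, the second strongest of Myc by score in replicate 1, and the upstream Cdkn1a promoter that had no peak. Sequences are from GRCm38 (mm10), read 5′ to 3′ on the strand of the gene, and were cut where a peak ran into an untranslated region. Capitals mark an E2F match (TTTGGCGC, TTTGCCGC, TTTCGCGC or TTTCCCGC) at Mycn and an SP and KLF match (GGGGCGGGG) at Ccnd3 and at the open Cdkn1a start. They mark a FOXO match (TGTTTAC) at Myc and 2 p53 decamers at the upstream Cdkn1a start. Matches were sought on both strands, and the Cdkn1b stretch held none of the motifs searched.
Myc promoter, chr15:61985116-61985265, plus strand: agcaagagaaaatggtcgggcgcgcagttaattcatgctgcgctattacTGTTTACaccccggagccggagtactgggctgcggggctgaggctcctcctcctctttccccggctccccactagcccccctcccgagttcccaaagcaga
Mycn promoter, chr12:12941915-12942025, minus strand: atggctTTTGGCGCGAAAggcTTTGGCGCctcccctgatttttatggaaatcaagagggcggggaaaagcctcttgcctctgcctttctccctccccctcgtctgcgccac
Ccnd3 internal promoter, chr17:47593376-47593469, plus strand: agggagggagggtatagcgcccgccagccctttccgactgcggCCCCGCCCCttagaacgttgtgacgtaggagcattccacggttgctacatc
Cdkn1a promoter with a peak, chr17:29093656-29093768, plus strand: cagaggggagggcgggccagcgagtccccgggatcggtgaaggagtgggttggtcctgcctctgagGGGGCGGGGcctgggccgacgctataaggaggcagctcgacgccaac
Cdkn1a upstream promoter without a peak, chr17:29090729-29090978, plus strand: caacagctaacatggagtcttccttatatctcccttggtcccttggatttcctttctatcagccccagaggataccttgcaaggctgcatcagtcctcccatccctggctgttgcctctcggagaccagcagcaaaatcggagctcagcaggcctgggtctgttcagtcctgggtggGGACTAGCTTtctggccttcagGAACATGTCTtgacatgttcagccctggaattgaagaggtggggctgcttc
Cdkn1b promoter, chr6:134920256-134920400, plus strand: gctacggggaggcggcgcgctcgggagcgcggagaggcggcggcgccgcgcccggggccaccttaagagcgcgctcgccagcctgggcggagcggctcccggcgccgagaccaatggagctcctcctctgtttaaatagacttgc

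A further 5 sequences, all distal shared peaks, show the sites to which the distal results return. Capitals mark the Myc and Max E-box CACGTG in the Mycl intron and upstream of Ccnd1, E2F and NF-Y (AGCCAAT) matches nearer to Ccnd1, and CTCF matches in the Ccnd2 intron and upstream of Cdkn1c. CTCF is the insulator protein that holds chromatin loops.
Mycl intron, chr4:122997176-122997325, plus strand: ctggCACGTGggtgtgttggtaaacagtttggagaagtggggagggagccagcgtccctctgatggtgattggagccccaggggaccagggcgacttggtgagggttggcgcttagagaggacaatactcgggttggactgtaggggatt
Ccnd1 near upstream, chr7:144941556-144941705, minus strand: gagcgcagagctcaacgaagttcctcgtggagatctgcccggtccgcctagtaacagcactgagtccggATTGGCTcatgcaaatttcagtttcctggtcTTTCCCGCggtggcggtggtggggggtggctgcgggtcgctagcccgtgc
Ccnd1 far upstream, chr7:144943436-144943585, minus strand: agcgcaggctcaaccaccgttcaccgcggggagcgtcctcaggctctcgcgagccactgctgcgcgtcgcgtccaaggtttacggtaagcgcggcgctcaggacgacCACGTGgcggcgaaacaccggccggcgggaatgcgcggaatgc
Ccnd2 intron, chr6:127147796-127147945, minus strand: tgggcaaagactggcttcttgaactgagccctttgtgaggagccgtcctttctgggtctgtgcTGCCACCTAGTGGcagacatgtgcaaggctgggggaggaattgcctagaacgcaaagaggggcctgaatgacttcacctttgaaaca
Cdkn1c upstream, chr7:143466416-143466565, minus strand: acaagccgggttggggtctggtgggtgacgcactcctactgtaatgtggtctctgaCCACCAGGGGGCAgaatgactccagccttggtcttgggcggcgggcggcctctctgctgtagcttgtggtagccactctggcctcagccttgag

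All 9 genes were open at a start in both libraries: 9 of 9 had a shared promoter peak, against 64.6% of all protein-coding genes. A promoter peak was present at 9 of 9 in replicate 1, against 69.9%, and at 9 of 9 in replicate 2, against 65.7%, and 9 of 9 had a hotspot over the promoter in both replicates, against 65.5%. Of their 27 annotated starts, 25 lay inside a hotspot of both libraries. The other 2 belong to Cdkn1a. Neighbouring starts of a gene often fell in the same hotspot, so they are not separate calls. The share over all annotated starts was not counted. The genes held 39 promoter peaks in replicate 1 and 38 in replicate 2, and 30 of the replicate 1 peaks were shared. The 9 that were not shared scored at most 71, and the 7 of replicate 2 that were not shared scored at most 27. The number of shared promoter peaks per gene ran from 1 (Ccnd1 and Cdkn1c) to 8 (Myc), with a median of 3 against 1 over all protein-coding genes. At least 2 were present at 7 of 9 genes, against 39.7%, and at least 3 at 6 of 9, against 16.7%.

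Hotspots covered a median of 1745 bp of a member's promoter windows in replicate 1 and 1368 bp in replicate 2, against 983.5 and 678 bp over all protein-coding genes. The plot of hotspot length shows the lengths for each gene and library. Genes with starts far apart have longer windows to cover, so each length is given with the window it was measured in. In 7 genes replicate 1 had the longer coverage, in Myc both were equal, and in Ccnd2 replicate 2 was longer. Among the 14371 protein-coding genes with a promoter hotspot in both libraries, 15.6% were longer in replicate 2, and the median ratio of replicate 1 to replicate 2 was 1.20.

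**Figure D1:**
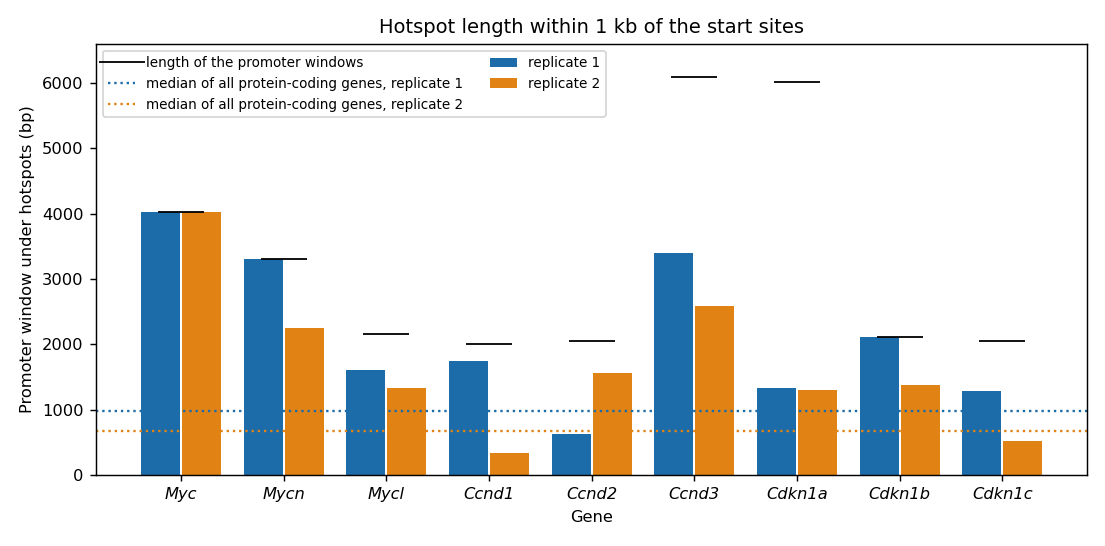
Length of promoter window under hotspots (bp, y axis) for each gene (x axis) in replicate 1 (blue) and replicate 2 (orange), 1 library per bar. Black dashes give the total length of the gene's promoter windows, and dotted lines give the medians of all protein-coding genes. Myc is filled in both libraries with 4032 bp, and Ccnd2 is the 1 gene whose replicate 2 bar is the taller.

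Myc had the longest promoter coverage of the set in both libraries. Its 5 starts lie within 1 hotspot, 5260 bp long in replicate 1 and 5225 bp in replicate 2, of which 5219 bp are common to both. It filled the whole 4032 bp of promoter window in each library. Among all protein-coding genes, Myc stood at the 99.7 percentile in replicate 1 and the 99.9 percentile in replicate 2. The strongest of its 8 shared promoter peaks lay over a start (chr15:61985456-61985605) and scored 139 in replicate 1 and 94 in replicate 2. A second group of openings was inside the gene, 311 bp before its internal start, with scores of 133 and 96. The peak printed above, 200 bp upstream of the first start, scored 134 and 89. The 3 genes named next had summed promoter hotspots most like those of Myc, by the distance between their lengths in the 2 libraries. They were Nol4 with 5368 and 4964 bp, Dpysl3 with 5688 and 5188 bp, and Elf2 with 5691 and 5064 bp.

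Mycn had a hotspot of that order in replicate 1 alone. It measured 5922 bp there, longer than that of Myc, from upstream of the gene into its introns, and covered all 3299 bp of promoter window. In replicate 2 the same stretch was split into hotspots of 179, 417 and 1874 bp at the promoter, which covered 2253 bp. Peaks at both of its starts were present in each library. The promoter peak at the upstream start scored 143 and 95, the peak 637 bp upstream of it 138 and 96, and the one at the internal start 98 and 48. All 3 were shared, and the first stood at the 99.3 and 94.8 percentiles of the libraries.

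Mycl, the third member of the family, had a hotspot of 1327 bp at its promoter in replicate 1 and 1142 bp in replicate 2. Coverage of its 2156 bp of window was 1599 and 1322 bp. Its strongest promoter peak (chr4:122995836-122995985) scored 135 and 104, and the one 373 bp upstream of the start 110 and 76. Its promoter thus had the shortest coverage of the Myc family in both libraries.

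Ccnd1 and Ccnd2 differed between the libraries in opposite directions. Over the 2001 bp window of Ccnd1, hotspots covered 1745 bp in replicate 1 and 336 bp in replicate 2. The replicate 2 hotspot lay wholly within a 1527 bp hotspot of replicate 1, and the single shared peak (chr7:144939736-144939885) scored 102 and 66. A ratio between libraries as large as that of Ccnd1, 5.19, was found in 1.47% of genes with promoter hotspots in both. The core of the promoter was therefore called in each library, and the flanks in replicate 1.

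Over the 2054 bp of Ccnd2 window, hotspots covered 622 bp in replicate 1 and 1556 bp in replicate 2. A ratio of replicate 2 to replicate 1 of at least 2.50, that of Ccnd2, occurred in 0.181% of the same genes. The longer coverage did not come with a stronger peak: the peak at the start (chr6:127150976-127151125) scored 107 in replicate 1, at the 92.9 percentile, and 44 in replicate 2, at the 71.8 percentile. The hotspots over the start itself were alike, 298 bp in each library. The added length in replicate 2 lay on both sides, in hotspots of 368, 482 and 549 bp, with 203 and 222 bp in replicate 1. The antisense transcript 9330179D12Rik, which starts 1381 bp from Ccnd2, had 1 promoter peak in replicate 1 and 6 in replicate 2, of which 1 was shared. These are not separate from the Ccnd2 result, because the promoter windows overlap. The shared peak (chr6:127149936-127150085) is also a Ccnd2 promoter peak, as is the replicate 2 peak that starts at 127150276. The replicate 2 peaks that start at 127148556 and 127148576 overlap each other. Among forebrain markers, Emx1 had 425 bp of promoter hotspot in replicate 1 and 859 bp in replicate 2, Lhx2 had 572 and 364 bp, and Six3 had 0 bp in both. The part of any forebrain tissue in the Ccnd2 result was not tested.

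Ccnd3 was open mainly at its internal starts. The starts of the gene span 91.0 kb. At the 4 upstream starts a single hotspot measured 231 bp in replicate 1 and 210 bp in replicate 2, with 1 shared peak of scores 56 and 30. At the internal start 47593470 of chromosome 17, hotspots of 1867 and 974 bp held a peak of scores 138 and 111, the highest mean percentile (98.1) among the promoter peaks of the 9 genes together with that of Cdkn1b. The last start, 47596068, had 3 shared peaks with scores of 66 and 30, 93 and 26, and 39 and 22. In total 3394 and 2582 bp of its 6101 bp of window were covered.

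Cdkn1a was open at 1 place of initiation, with no call at 2 others. The neighbouring starts at 29093769 and 29093781 on chromosome 17 shared a hotspot of 2541 bp in replicate 1, where replicate 2 had 4 hotspots of 675, 123, 363 and 180 bp. The peak there scored 121 and 82. Hotspots covered 1322 bp in replicate 1 and 1305 bp in replicate 2 of the gene's 6015 bp of window, or 22.0% and 21.7%. The start 2790 bp upstream and the start 4119 bp downstream had no hotspot base and no peak within 1 kb in either library. The 2 promoters differed in base composition as well. The ratio of observed to expected CpG over the 300 bp RefSeq promoter was 0.0892 at the upstream start without a call and 0.786 at the open one, against a median of 0.384 over 32851 RefSeq promoters. That upstream promoter held the 2 p53 decamers, 1 of which is GAACATGTCT. A p53 decamer was present in 8.36% of all RefSeq promoters of that length.

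Cdkn1b was covered over its whole 2113 bp of window in replicate 1, by a hotspot of 2357 bp, and over 1368 bp in replicate 2. Its 4 shared promoter peaks included the one printed above, which scored 139 and 110. Cdkn1c had the least promoter hotspot of the inhibitors in bp, 1279 bp in replicate 1 and 512 bp in replicate 2, over 2055 bp of window. As a share of window it had 62.2% and 24.9%, and Cdkn1a had the least, 22.0% and 21.7%. The single shared promoter peak of Cdkn1c scored 134 and 106, at the 97.7 and 96.8 percentiles. The strongest promoter peaks of the 3 Myc genes scored 135 to 143 in replicate 1 and 94 to 104 in replicate 2, so Cdkn1c lay just below them in replicate 1 and above them in replicate 2.

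**Figure D2:**
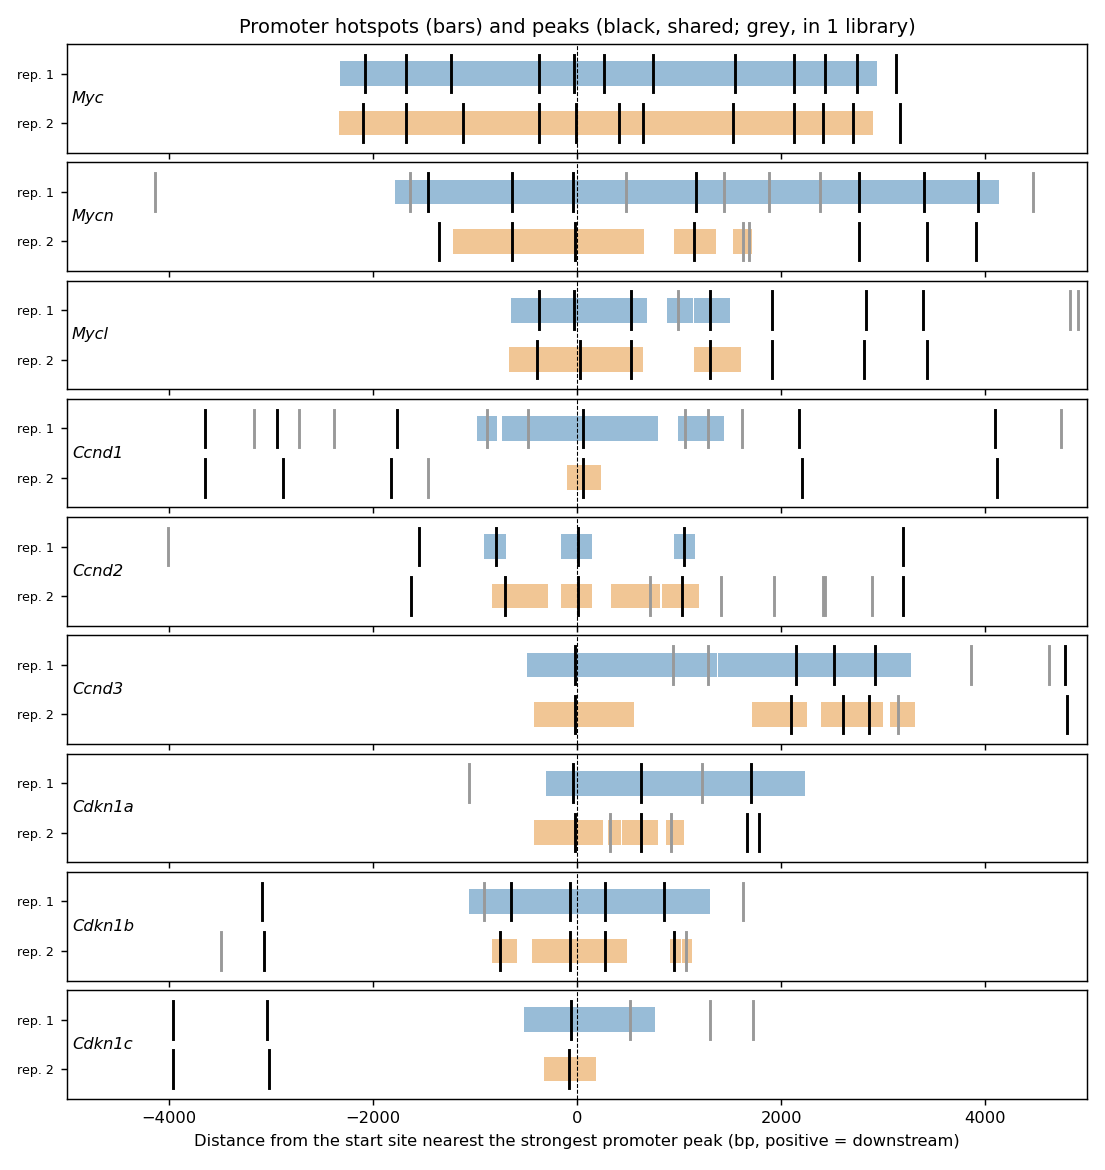
Hotspots that reach a promoter window (bars) and peaks (vertical lines; black, shared; grey, in 1 library) of replicate 1 (upper row, blue) and replicate 2 (lower row, orange), by distance in bp from the start nearest the strongest promoter peak. Other hotspots are not drawn. The Myc hotspots coincide, the Mycn hotspot is split in replicate 2, and the Ccnd2 hotspots are longer in replicate 2.

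Away from the promoters, 73 shared peaks lay within 50 kb of the 9 genes. Each of the 9 genes had at least 1, against 82.7% of all protein-coding genes. The median per gene was 7, against 3 over all protein-coding genes. Mycl had 14, Ccnd1 12, Ccnd3 11, Cdkn1c 11, Cdkn1a 7, Ccnd2 6, Mycn 5, Cdkn1b 4 and Myc 3. Neighbouring counts in this order differ by at most 4, and with 1 value per gene there is no error on which to separate them. The order also depends on neighbouring genes. All peaks counted to Myc, Mycn and Cdkn1b had the member as the nearest protein-coding start. Around Mycl some were nearer to Mfsd2a or Trit1, around Ccnd1 to Fgf15 or LTO1, and around Ccnd3 to Taf8, Gm20517 or Usp49. The starts of Ccnd3 span 91.0 kb, so its distal windows also cover the most sequence. The Ccnd3 count and the 73 hold a weak pair that overlap each other, chr17:47614936-47615085 and chr17:47614996-47615145. Their scores were 17 and 18 in replicate 1, and both overlap the same replicate 2 peak, of score 12. Myc, with the most promoter window under hotspots in both libraries, had the fewest distal shared peaks. Its count leaves out 2 shared peaks, 1900 and 1500 bp upstream in the same hotspot, which lie within 1 kb of the start of Gm37947. They scored 130 and 103, and 48 and 42. Also left out is a shared peak 49849 bp downstream, within 1 kb of the start of Gm27913, with scores of 45 and 21. Counting all shared peaks within 50 kb, promoter peaks included, Myc had 14, between 10 (Mycn, Ccnd2 and Cdkn1a) and 20 (Mycl).

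Of the 73, 24 lay within 5 kb of a start of the member, 22 between 5 and 20 kb and 27 farther. The nearest protein-coding start was that of a member for 43. By annotation 37 were intergenic, 31 intronic, 4 in non-coding exons and 1 in an untranslated region, and 17 of the intronic peaks were in the member itself. A hotspot that reached a member's promoter in replicate 1 held 7 of them, 4 at Mycn and 1 each at Myc, Mycl and Cdkn1a. The others stand apart from the promoter hotspots.

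The libraries differed in number more than in the sites. Replicate 1 had 153 distal peaks around the genes and replicate 2 had 86, and each of the 9 genes had more in replicate 1. Of the replicate 1 peaks 73 were shared, or 47.7% (95% Wilson interval 40.0% to 55.6%), against 37.2% of all distal peaks. Of the replicate 2 peaks 72 were shared, or 83.7% (74.5% to 90.05%), against 76.5%. In replicate 1 the shared peaks had a median score of 75 and the unshared a median of 38. These intervals cover counting error over peaks only. Around Ccnd3, 19 of the 30 replicate 1 peaks were unshared, the most of any of the 9 genes, and around Mycn none of the 5 replicate 2 peaks was. The distal windows of Ccnd3 are the longest of the 9 genes, so more peaks can fall in them.

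**Figure D3:**
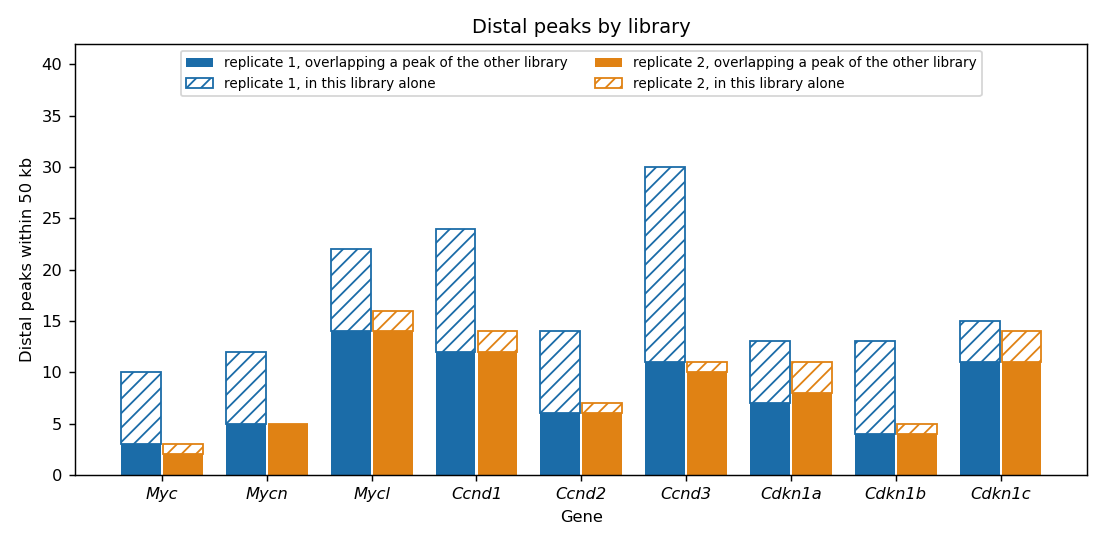
Number of distal peaks within 50 kb (y axis) for each gene (x axis) in replicate 1 (blue) and replicate 2 (orange). Filled bars are peaks that overlap a peak of the other library and hatched bars are peaks of 1 library. All 9 genes have more in replicate 1, with the most, 30, at Ccnd3, whose distal windows are the longest.

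In the Myc family, the strongest distal site by mean percentile lay in the gene's own intron at Mycn and at Mycl. The margin at Mycl was small, 94.0 against 93.9 for the peak 10673 bp upstream, which scored higher than the intronic peak in replicate 2. The Mycn peaks 2105 bp and 1465 bp downstream of a start scored 126 and 78, and 123 and 73. The Mycl intron held a peak 2672 bp downstream of a start (chr4:122998696-122998845) with scores of 134 and 77. Further from Mycl, peaks stood 10673 bp upstream (scores 125 and 81), 40353 bp upstream in an intron of Mfsd2a (124 and 80) and 17952 bp downstream, near the start of Trit1 (128 and 78). Those 4 Mycl sites were above a mean percentile of 90. Myc had none above it: its strongest distal sites were 1060 bp upstream (108 and 55), inside the promoter hotspot, and 19940 bp upstream (61 and 25). A stronger shared peak 1900 bp upstream of Myc, at a mean percentile of 96.7, is not distal by the rule because it lies near the start of Gm37947. A replicate 1 peak 18212 bp downstream of Mycl had a score of 110, the highest of any unshared distal peak in the set.

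The D cyclin genes each had a strong intronic site. At Ccnd1 it lay 2178 bp downstream of the start (chr7:144937616-144937765) and scored 108 in replicate 1 and 97 in replicate 2, above the gene's own promoter peak in both. Upstream of Ccnd1, the peaks 1762 bp and 3642 bp away scored 112 and 71, and 110 and 72. Ccnd1 thus had 3 distal sites at a mean percentile of 90 or more, while its promoter peak stood at 88.7. A peak 1462 bp upstream with a score of 51 was in replicate 2 alone, the highest-scoring such peak of the set.

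At Ccnd2 the peak 3136 bp downstream of a start, in the intron, scored 115 and 88, again above the promoter peak in both libraries. The next, 8736 bp downstream, scored 82 and 64. In replicate 1 alone, a peak 16856 bp downstream scored 84. At Ccnd3 the strongest site was 33523 bp past the last start (chr17:47629516-47629665), with scores of 140 and 104, but it lies in an intron of Gm20517 and 1099 bp from the start of Usp49, so it is near to Ccnd3 by the distance rule alone. The peak 6102 bp into Ccnd3 scored 120 and 74.

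Among the inhibitors, Cdkn1a had an intronic peak 1690 bp downstream of a start (126 and 84) and a far upstream one at 41648 bp (105 and 90), whose nearest protein-coding start is that of Srsf3. The stretch between holds Trp53cor1, a long non-coding RNA gene, whose start is 11800 bp from Cdkn1a. Cdkn1b had peaks 6898 bp downstream (96 and 60) and 3090 bp upstream (103 and 42). Cdkn1c had a row of 4 within 10 kb upstream, at 3041 bp (97 and 69), 3961 bp (84 and 38), 5441 bp (93 and 80) and 9081 bp (100 and 73). The peak at 9081 bp was nearer to the start of Slc22a18, at 3605 bp. None of the distal sites of Cdkn1b and Cdkn1c reached a mean percentile of 90, and their strongest stood at 86.3 and 89.9.

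**Figure D4:**
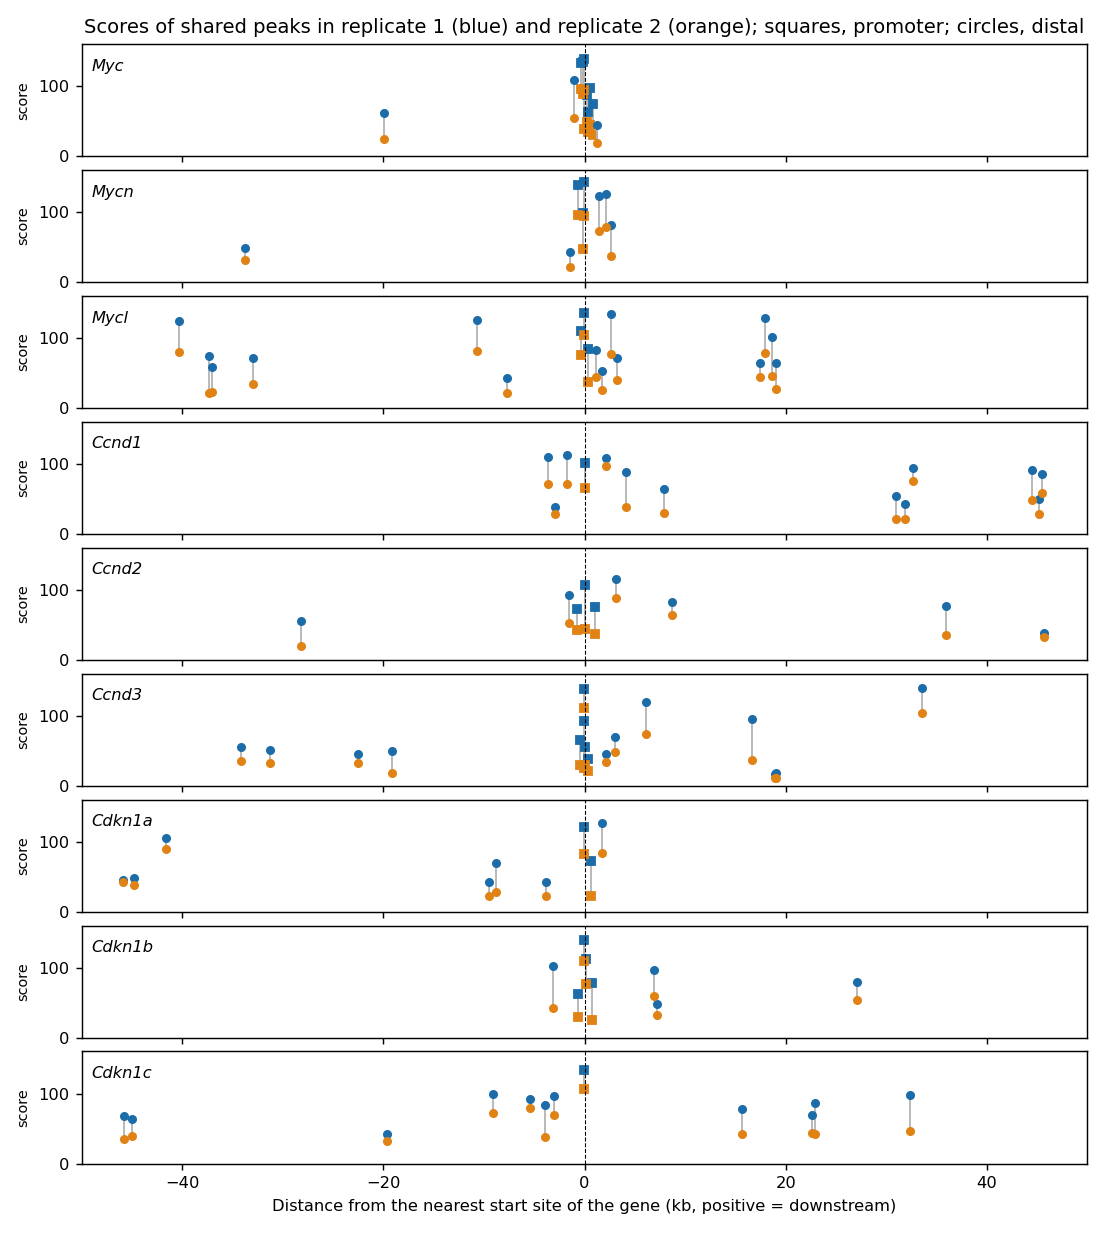
Scores of shared peaks (y axis) in replicate 1 (blue) and replicate 2 (orange), joined by a line, against distance from the nearest start of the gene in kb. Squares are promoter peaks and circles distal peaks. Each shared peak scores lower in replicate 2, and the Mycl, Ccnd1 and Cdkn1c peaks are spread over the window while Myc has 1 distal site farther than 2 kb.

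Motif letters were counted in the 30 shared promoter peaks and the 73 distal shared peaks, and set beside all 30691 shared promoter peaks and 81031 distal shared peaks. No promoter peak of the 9 genes held the Myc and Max E-box, against 5.63% of all promoter peaks. Among distal peaks 2 held it, or 2.74% against 2.98%, the Mycl intron and far upstream Ccnd1 sites printed above. E2F letters were in 2 promoter peaks, those over the starts of Myc and Mycn, or 6.67% against 1.89%. The Mycn peak held 3 matches, of which 2 overlap in the printed sequence. Among distal peaks 3 held an E2F match, or 4.11% against 0.684%, and all 3 were within 50 kb of Ccnd1. The printed one lay 1762 bp upstream of it, and the others lay 30958 and 31838 bp downstream, in an intron of Gm39119 and nearer to the start of LTO1, at 6189 and 7069 bp.

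CTCF matches were in 9 distal peaks, or 12.3% against 9.75% of all distal shared peaks, and in no promoter peak, against 2.90%. Cdkn1c had 4 of them, Ccnd2 2, Ccnd3 2 and Mycl 1. Of the Cdkn1c peaks, those 19661 and 45821 bp upstream were nearer to the starts of Slc22a18 (5610 bp) and Phlda2 (4330 bp). The Ccnd2 peak 45696 bp downstream was nearer to Tigar, and the Ccnd3 peak 22480 bp upstream was nearer to Taf8. The p53 decamer was in 8 distal peaks, or 11.0% against 5.07%, of which 1 was counted to Cdkn1a, 44808 bp upstream. SP and KLF letters were in 4 promoter peaks, or 13.3% against 10.2%, and in 4 distal peaks, or 5.48% against 1.00%. No peak of the set held the letters searched for GLI (GACCACCCA), RBPJ (CGTGGGAA) or TCF and LEF (CTTTGAT), which were in 0.106%, 0.354% and 2.18% of all distal shared peaks. Median GC content was 63.7% in the promoter peaks, against 62.0% of all, and 53.3% in the distal peaks, against 50%. These are counts of letters in windows, with the peaks of 1 gene not independent of each other.

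The wider network of these genes was open at its promoters as well. Of 35 genes that act with them, 35 had a shared promoter peak, against 64.6% of all protein-coding genes: 8 of 8 Myc partners and antagonists, 7 of 7 kinases and other cyclins, 4 of 4 INK4 inhibitors, 11 of 11 pocket proteins and E2Fs, and 5 of 5 genes of turnover and upstream control. Their distal shared peaks had a median of 4 per gene, against 3 over all protein-coding genes. Counts ran from 0 at Ccnb1, the mitotic cyclin B1, to 17 at E2f2, an activating E2F. Mnt, a Max partner that opposes Myc, had 16, and Trp53, the gene of p53, had 14. The INK4 inhibitors, which bind Cdk4 and Cdk6 directly, had the lowest group median, 1, over 4 genes of which Cdkn2d had 6. Summed over genes, the 3 Myc genes together had 22 distal shared peaks, the 3 D cyclins 29 and the 3 Cip/Kip inhibitors 22. These are sums, so they are not to be set against the medians per gene.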

How the data were processed

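DNase-seq was done on 2 hindbrain samples. Per the labels, the authors aligned to mm10. Peaks and hotspots were made from filtered alignments, 1 list of each per library, per the deposited notes. The sources used here do not give the aligner, caller, versions or thresholds. The deposited peak score is a whole number whose scaling is not stated. For hotspots the authors gave a −log10 q-value, with 100 taken as its cap. No read counts were used, and depth is unknown.

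Starts came from the GENCODE M21 basic set and promoter sequences from RefSeq (GRCm38.p6), which matched 5 of the 9 genes. All peak and hotspot ends fell within the GRCm38 chromosomes. Overlapping promoter windows of a gene were merged. A percentile is the share of a library's peaks, or of all genes, with lower values, with ties split evenly. Shared sets use replicate 1 positions. No significance test was made, since there is 1 group. The members and gene lists were chosen with earlier results of these data known. Named sites were, by rule, each gene's strongest promoter peak, 2 strongest distal shared peaks and strongest unshared distal peak of each library. Others were chosen after their values were seen. Of the network list, genes without a shared promoter peak and the 3 with most distal shared peaks were to be named; Ccnb1 was added for its minimum. One marker and one sequence are not reported here. The counting was tested on simulated data. Alternatives changed windows, overlap, peak score, peak number and libraries.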

Additional observations from a re-analysis of the deposited data

How the results depend on the processing

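All 9 genes had a shared promoter peak under each alternative run. The 73 distal shared peaks became 46 within 20 kb, 126 within 100 kb and 43 where the gene had to be nearest, and single libraries gave 86 to 153. The median per gene of 7 became 4 within 20 kb, 15 within 100 kb, 4 by the nearest start, 4 with peaks at or above the median score, and 11 to 14 with single libraries. Within 20 kb Ccnd1 had 6, Ccnd2 3, Ccnd3 7, Cdkn1a 4 and Cdkn1c 6. Within 100 kb Mycn had 11, Ccnd2 10, Ccnd3 19, Cdkn1a 17, Cdkn1b 12 and Cdkn1c 17. Wider windows hold more peaks by construction. A 50% overlap or equal numbers of peaks kept the count of each of the 9 genes within 1.5 times. Median promoter hotspot length fell to 1113 and 930 bp in a 500 bp window, which is a shorter window, and to 930 bp in replicate 2 with capped hotspots alone. The shared part of replicate 1 distal peaks was 59.0% among peaks at or above the median score. No paired analysis was possible because there is 1 group and no test. With 2 libraries of unknown depth, a peak missing from 1 of them cannot be read as a closed site.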

Other observations

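Cdkn2c, the INK4 inhibitor p18, stood apart from the rest of the network list in its distal peaks: 2 in replicate 1 and 45 in replicate 2, of which 1 was shared, although its promoter hotspots covered 1793 and 1745 bp. It was chosen after its values were seen.

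Several neighbours of the 9 genes had promoter peaks in replicate 1 alone. Rab44, 16245 bp from Cdkn1a, had 2 in replicate 1 and 0 in replicate 2. Gm44732, antisense and 1247 bp from Cdkn1c, had 3 and 0. The start of Slc22a18, an imprinted neighbour 12686 bp from Cdkn1c, had 0 in both, while Phlda2, another imprinted gene at 41491 bp, had 3 and 2, of which 1 was shared.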
